A study of Mus musculus with 12 samples.

Results

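Expression of 9 red cell genes was followed in LSK cells with and without irradiation, library by library. They are Klf1, Epor, Alas2, Hba-a1, Hba-a2, Add2, Aqp1, Ermap and Slc4a1, taken by gene symbol from tables of 25078 genes. All 9 had a row, 7 passed the filter on low counts, and the rows of Hba-a1 and Hba-a2 held 0 counts in all 12 libraries. LSK cells (Lin-Sca1+cKit+) are the lineage-negative fraction of mouse bone marrow that holds the blood stem cells and the earliest progenitors. They were sorted from wild-type mice (WT) and from mice at the preleukemic stage of Cbfb-MYH11 (CM), the fusion gene of leukemia with inversion of chromosome 16. One aliquot of each animal received 3.5 Gy (IR) and another was kept in the same incubation without irradiation (NIR), and RNA was taken 24 h later. Each of the 4 groups, WT NIR, WT IR, CM NIR and CM IR, held 3 libraries from 3 animals, with the same animals in the IR and NIR group of a genotype. The labels used here give no age, sex, strain or driver of the fusion gene. Library names mark WT animals 1 and 3 with C, WT animal 2 with WT and the CM animals with CHW, without saying what these marks mean.

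Red cells arise from stem cells through erythroid progenitors and erythroblasts. Progenitors survive on erythropoietin, which signals through its receptor Epor, and the transcription factors Gata1 and Klf1 switch on the genes for globin, heme and the red cell membrane. Alas2 makes the first, rate-limiting step of heme synthesis in erythroid cells, and its protein works in mitochondria. Most of these genes are transcribed strongly only after cells have left the LSK stage.

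The total over gene rows was 68.5 to 110.8 M counts per library. The sorting markers were present in every library, Kit at 28.0 to 54.4 RPKM and Ly6a, which encodes Sca1, at 41.4 to 448 RPKM. RPKM divides a count by exon length and library size, so it allows levels of different genes to be compared. CPM, used below within a gene, is the count scaled to a common library size after TMM adjustment, and a fold change is the log2 ratio of CPM. A gene was called where edgeR's quasi-likelihood test gave a Benjamini-Hochberg adjusted p under 0.05 over all 14599 genes tested. Of 15 pairs among the other tested genes, leaving Aqp1 aside, the correlation of log2 CPM over the 12 libraries ranged from 0.58 to 0.90, with a median of 0.79. For the 6 pairs with Aqp1 it ranged from -0.26 to 0.36. The points of these correlations share animals and, within a library, depth.

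The stretch before the start site is shown for 4 genes, since Klf1, Ermap and Add2 carried the GATA words that Gata1 is known to bind and Aqp1 carried none. The 250 bases before the RefSeq start are from build GRCm38.p6 and run 5′ to 3′ on the strand of the gene. They lie at chr8:84901732-84901981 (plus strand) for Klf1, chr4:119189996-119190245 (minus strand) for Ermap, chr6:86028431-86028680 (plus strand) for Add2 and chr6:55336049-55336298 (plus strand) for Aqp1. Capitals mark the 6-base words made of GATA with A or T before it and A or G after it, or their reverse complement.
Klf1: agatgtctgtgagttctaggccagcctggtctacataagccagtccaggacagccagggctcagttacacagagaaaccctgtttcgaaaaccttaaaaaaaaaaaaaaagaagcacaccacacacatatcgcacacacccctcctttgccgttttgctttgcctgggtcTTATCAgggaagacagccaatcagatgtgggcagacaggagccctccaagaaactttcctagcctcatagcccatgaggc
Ermap: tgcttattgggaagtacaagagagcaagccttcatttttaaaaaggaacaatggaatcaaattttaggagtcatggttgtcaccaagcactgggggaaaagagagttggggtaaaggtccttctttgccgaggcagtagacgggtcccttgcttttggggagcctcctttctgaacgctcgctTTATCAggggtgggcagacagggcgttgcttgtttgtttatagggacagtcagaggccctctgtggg
Add2: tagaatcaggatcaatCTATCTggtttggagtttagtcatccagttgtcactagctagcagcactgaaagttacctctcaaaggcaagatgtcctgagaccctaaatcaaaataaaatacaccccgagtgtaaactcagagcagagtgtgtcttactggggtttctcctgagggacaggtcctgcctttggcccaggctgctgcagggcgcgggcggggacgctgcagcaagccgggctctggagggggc
Aqp1: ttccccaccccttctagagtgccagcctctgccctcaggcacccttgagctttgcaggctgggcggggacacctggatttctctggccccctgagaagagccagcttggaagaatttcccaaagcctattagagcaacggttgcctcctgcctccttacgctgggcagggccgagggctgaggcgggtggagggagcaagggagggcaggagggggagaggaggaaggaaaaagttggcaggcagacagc

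These words, searched on both strands from 250 bases before to 50 after the start, were found for 7 of the 8 genes with a RefSeq entry and in 29.8% of 32851 promoters of the same length. Slc4a1 had no entry in the table. The word CCACCC, the core of the CACCC box that Klf1 binds, was found for 7 of 8, with Add2 as the exception, and in 31.5% of all promoters. Both were found for 6 of 8 and in 7.42% of all promoters. Hba-a1 and Hba-a2, identical over 297 of 297 bases compared, carry both words, so each count holds the same sequence under 2 names. Ermap had TGATAA at -67 and CCACCC at -60, both on the reverse strand. Klf1 had TGATAA at -80, Epor AGATAA at -54 and Alas2 AGATAA at -86, while the word of Add2, AGATAG, lay farther out at -234. A match of letters is a description of the window and not a site of binding.

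The adult alpha globin genes could not be read from these tables. Hba-a1 and Hba-a2 encode the same chain from a pair of gene copies, and their coding sequences of 429 bases in GENCODE M21 differed at 1 base, C381T counted from the A of the start codon (99.8% identical). The windows of bases 351 to 410 of the coding sequences follow, with the differing base in capitals.
Hba-a1: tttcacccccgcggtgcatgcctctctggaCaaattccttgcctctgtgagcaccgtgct
Hba-a2: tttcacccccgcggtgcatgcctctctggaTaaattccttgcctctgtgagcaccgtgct

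Their RefSeq promoters were identical over 297 of 297 bases compared. In the deposited table the row of Hba-a1 spanned chr11:32283672-32297303 and that of Hba-a2 chr11:32283675-32297310, so each row covered both gene copies, which GENCODE M21 places at chr11:32283511-32284465 and chr11:32296489-32297298. The beta globin rows Hbb-b1 and Hbb-bs, and Hbb-b2 and Hbb-bt, coincided in the same way and were also at 0 in all 12 libraries. Among all rows, 382 genes lay in same-strand pairs whose spans overlapped by at least 90% of each, and 85.9% of them were at 0 in every library, against 17.4% of all genes. The zeros of Hba-a1 and Hba-a2 are therefore given with no upper limit and were not read as absence of globin RNA. The embryonic globin rows, which did not coincide with another, held 24 counts for Hbb-y, 11 for Hbb-bh1 and 0 for Hba-x over all 12 libraries together.

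The tested genes stood low in LSK cells. Aqp1, a water channel of the red cell membrane that other cells also carry, had the highest median over the 12 libraries, 2.30 RPKM (range 0.714 to 16.8). Klf1 followed at 1.70 RPKM (0.714 to 8.59), Ermap at 1.48 (0.0348 to 9.06) and Epor at 1.26 (0.443 to 2.76). These ranges overlapped throughout, and the order of the medians did not hold in every library. Aqp1 stood above Klf1 in each WT library, as at 16.8 against 8.17 RPKM in the NIR library of animal 1. In CM it stood under Klf1 in each library but the NIR library of animal 2 (1.82 against 1.53 RPKM). Add2 stood at 0.177 RPKM (0.0270 to 1.61), Alas2 at 0.1196 (0 to 0.821) and Slc4a1 at 0.0256 (0 to 1.59). By comparison Gata1 had a median of 7.54 RPKM and the transferrin receptor Tfrc one of 107 RPKM. The widest span belonged to Ermap, whose highest CPM, in the NIR library of WT animal 1, was 263 times its lowest, in the IR library of WT animal 2.

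**Figure D1:**
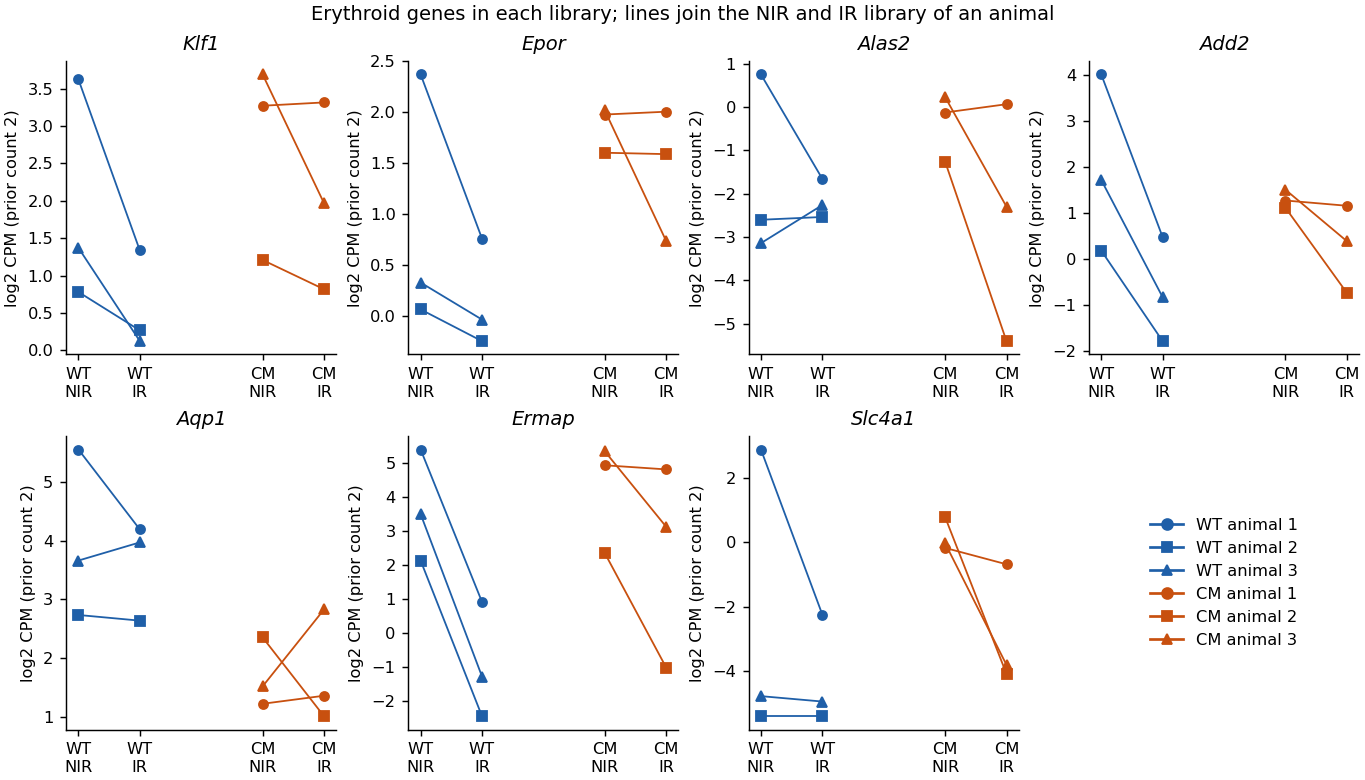
Level of the 7 tested genes in each library, as log2 CPM with a prior count of 2, with lines joining the NIR and IR library of an animal (WT blue, CM orange; circles, squares and triangles for animals 1, 2 and 3). Ermap and Add2 slope down in all 6 animals, Aqp1 does not, and WT animal 1 starts highest of the WT animals for every gene.

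Irradiation of WT cells was followed by lower Ermap and Add2 in each of the 3 animals, and by lower Klf1 and Epor of smaller size. Ermap, an erythroblast membrane protein that carries the Scianna blood group antigens, stood at 42.0, 4.34 and 11.2 CPM in the NIR libraries of WT animals 1, 2 and 3, and at 1.85, 0.159 and 0.387 CPM in their IR libraries. The groups did not overlap, as for 6.63% of all genes in that direction, and the level was 22.6, 27.3 and 29.0 times lower after irradiation within the 3 animals. The starting levels differed by almost 10 times between the animals while the fall was alike, with a mean within-animal change of -4.61 ± 0.15 on the log2 scale (SD, n = 3). Because these are bulk libraries, fewer cells of a type and less RNA per cell cannot be told apart.

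Add2, beta-adducin of the spectrin-actin membrane skeleton, stood at 16.05, 1.11 and 3.25 CPM in the WT NIR libraries and at 1.36, 0.265 and 0.537 CPM in the IR libraries. The groups overlapped through animal 1, whose IR level was above the NIR level of animal 2, but each animal was lower, by 11.8, 4.17 and 6.06 times. With the animal as a block, which sets each IR library against the NIR library of its own animal, edgeR called both genes: Ermap at -4.67 ± 0.62 (log2, SE; adjusted p = 0.0269) and Add2 at -2.82 ± 0.41 (adjusted p = 0.0356). That fit called 0.178% of all genes lower. Without the block neither was called (Ermap -4.59 ± 1.51, adjusted p = 0.707; Add2 -3.24 ± 0.95, adjusted p = 0.514), and 0 of the 7 genes passed, against 0.116% of all genes. At an unadjusted p under 0.05 the same fit held 3 of the 7, Add2, Ermap and Slc4a1, against 4.05% of all genes, and the fit with the block held 4, with Klf1 added, against 13.5%. Limma-voom called 0, and DESeq2 called Add2 alone (adjusted p = 0.0123), against 0.960% of the genes it gave an adjusted p. The blocked calls needed all 3 WT animals, since without any 1 of them neither gene passed (adjusted p 0.108 to 0.241 for Ermap and 0.134 to 0.276 for Add2). Without WT animal 1, 2 or 3 the fit called 23, 0 and 0 of all genes, against 163 with all animals. Few genes thus passed at all. The fitted values stayed between -4.82 and -4.58 for Ermap and between -3.10 and -2.35 for Add2.

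Klf1, the erythroid transcription factor that drives adult globin and membrane genes, stood at 12.3, 1.69 and 2.56 CPM in the WT NIR libraries and at 2.501, 1.18 and 1.06 CPM in the IR libraries. Epor, the erythropoietin receptor, stood at 5.15, 1.02 and 1.23 CPM without and at 1.67, 0.817 and 0.950 CPM with irradiation. Both were lower in 3 of 3 animals, the groups overlapped, and animal 1 was highest in each group. Neither was called with the block (Klf1 -1.40 ± 0.44, adjusted p = 0.237; Epor -0.80 ± 0.37, adjusted p = 0.413). In all, 4 of the 7 genes were lower in 3 of 3 WT animals, which held for 22.3% of all genes.

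The other 3 genes did not move together in WT cells. Alas2 stood at 1.66, 0.141 and 0.0897 CPM in the NIR libraries and at 0.294, 0.149 and 0.185 CPM in the IR libraries, so only animal 1 was lower. Aqp1 stood at 47.2, 6.63 and 12.7 CPM without irradiation and at 18.3, 6.20 and 15.7 CPM with it, higher in animal 3. Slc4a1, the anion exchanger band 3, was counted 511, 0 and 1 times in the NIR libraries and 16, 0 and 1 times in the IR libraries.

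For Slc4a1 the WT comparison thus rested on animal 1. The 0 counts in animal 2 allow levels up to 0.0335 CPM (NIR) and 0.0325 CPM (IR), for counting error only. With the WT animal 1 NIR library left out, the fitted WT change turned to 3.10 for Slc4a1, 0.83 for Alas2, 0.47 for Aqp1 and 0.024 for Epor. It fell in size to -0.43 for Klf1, to -1.60 for Add2 and to -3.29 for Ermap.

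**Figure D2:**
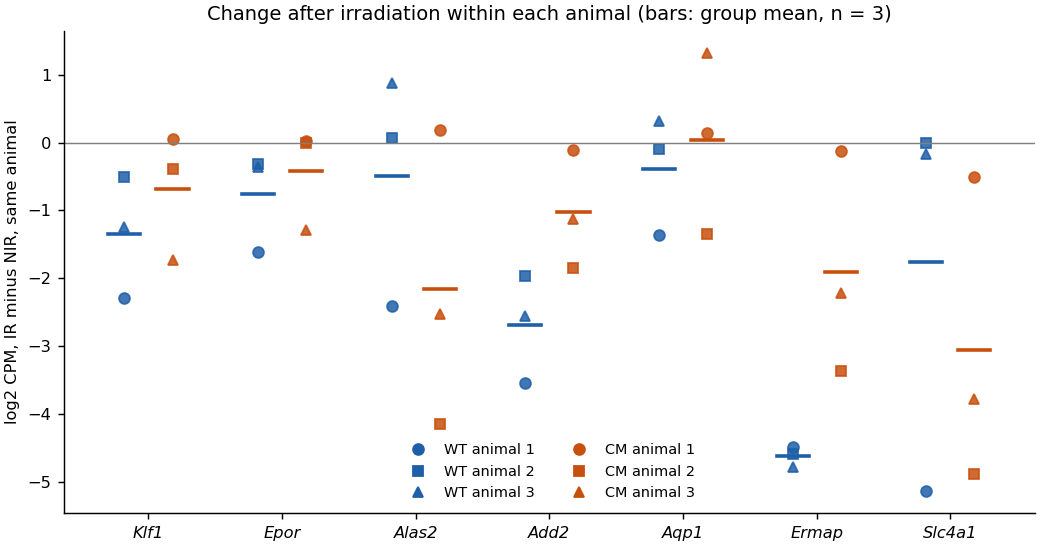
Change of each gene after irradiation within each animal, as log2 CPM of the IR library minus that of the NIR library (WT blue, CM orange; bars are means of 3 animals). The 3 WT animals lie together for Ermap, between -4.48 and -4.78, while the CM animals spread from -0.12 to -3.36.

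In CM cells the change after irradiation differed between the animals, and animal 1 moved least for Ermap and Add2. Ermap stood at 30.4, 5.05 and 40.4 CPM in the NIR libraries of CM animals 1, 2 and 3, and at 28.0, 0.469 and 8.66 CPM in their IR libraries. Animal 1 was 1.09 times lower, against 10.8 and 4.67 times in animals 2 and 3, and the groups overlapped. Add2 stood at 2.38, 2.13 and 2.81 CPM without and at 2.20, 0.575 and 1.28 CPM with irradiation, again with animal 1 nearly level. For Slc4a1 the counts were 65, 134 and 71 without irradiation and 50, 3 and 4 with it, and here the groups did not overlap, as for 0.986% of all genes in that direction.

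Klf1 stood at 9.63, 2.29 and 12.9 CPM in the CM NIR libraries and at 9.93, 1.74 and 3.89 CPM in the IR libraries. Epor stood at 3.91, 3.01 and 4.02 CPM without and at 3.99, 2.98 and 1.64 CPM with irradiation. For both the change was within the spread of the NIR group in animals 1 and 2, and the fall was in animal 3.

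Alas2 stood at 0.891, 0.394 and 1.15 CPM without irradiation and at 1.02, 0 and 0.179 CPM with it, where the 0 in animal 2 allows up to 0.0361 CPM. Aqp1 stood at 2.30, 5.08 and 2.83 CPM without and at 2.53, 1.98 and 7.08 CPM with irradiation, lower in animal 2 and higher in animals 1 and 3. Thus 3 of the 7 genes, Add2, Ermap and Slc4a1, were lower in 3 of 3 CM animals, as were 11.4% of all genes.

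No member was called in CM cells by edgeR with or without the block, by DESeq2 or by limma-voom, and the fit without the block called 0.00685% of all genes and the fit with it 0%. At an unadjusted p under 0.05 the fit without the block held 0 of the 7 against 1.62% of all genes, and the fit with it held 3, Ermap, Slc4a1 and Add2, against 6.61%. With the block the values were -1.75 ± 0.54 for Ermap (adjusted p = 0.643), -1.01 ± 0.39 for Add2 (adjusted p = 0.721) and -2.82 ± 0.97 for Slc4a1 (adjusted p = 0.707). Without the IR library of CM animal 1 the unblocked change of Ermap went from -1.03 to -2.48, and without that of animal 2 to -0.47.

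**Figure D3:**
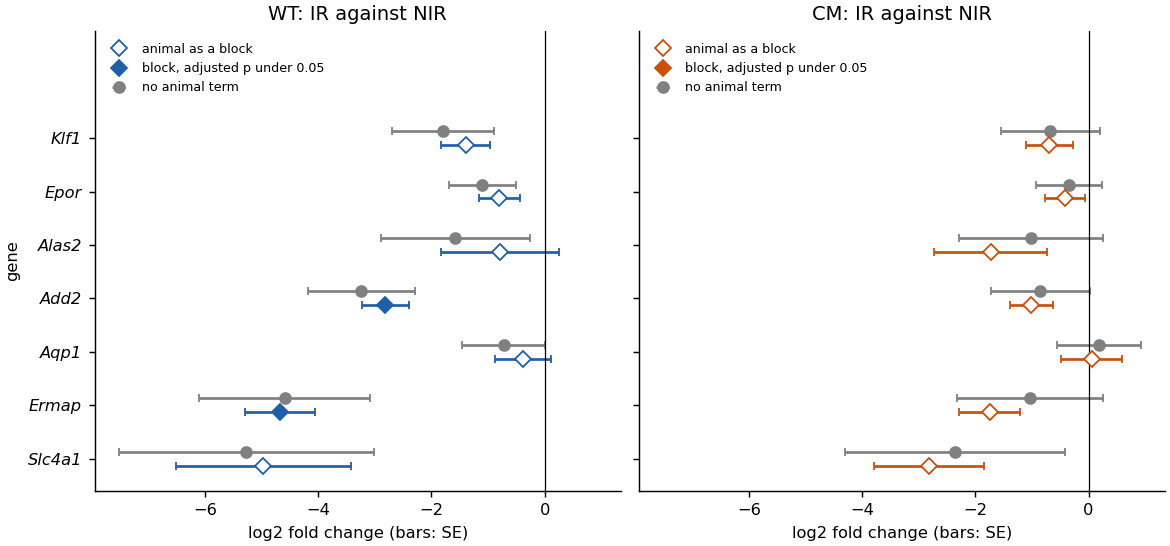
Fitted log2 fold change of IR against NIR with its standard error, for WT (left) and CM (right), without an animal term (grey circles) and with the animal as a block (diamonds, filled where the adjusted p was under 0.05). Only Ermap and Add2 in WT are filled, and the block shortens the error bars, for Ermap in WT from 1.51 to 0.62.

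Over both genotypes together, Ermap and Add2 were lower after irradiation in 6 of 6 animals, which held for 6.57% of all genes, and 5 of the 7 genes were lower in at least 5 of 6, against 20.1%. Slc4a1 entered this tally only with WT animal 3, which had 1 count in each of its libraries. Epor entered it only with CM animal 2, at 3.01 CPM without and 2.98 CPM with irradiation. With the block the averaged change was called for Ermap (-3.21 ± 0.41, adjusted p = 0.0206) and Add2 (-1.91 ± 0.28, adjusted p = 0.0304), in a fit that called 0.651% of all genes lower. It was not called for Klf1 (-1.04 ± 0.30, adjusted p = 0.151), Epor (-0.61 ± 0.25, adjusted p = 0.291), Slc4a1 (-3.90 ± 0.93, adjusted p = 0.1199), Alas2 (-1.26 ± 0.73, adjusted p = 0.436) or Aqp1 (-0.17 ± 0.37, adjusted p = 0.860). Without the block 0 of the 7 passed, against 0.308% of all genes, and limma-voom called 0, while DESeq2 called Add2, against 1.16% of the genes it gave an adjusted p. At an unadjusted p under 0.05 there were 3 of the 7 without the block, against 5.19% of all genes, and 5 with it, against 17.0%. Leaving out any WT animal ended both blocked calls (adjusted p 0.0601 to 0.126 for Ermap and 0.0760 to 0.157 for Add2), and leaving out CM animal 2 ended that of Add2 (adjusted p = 0.0772). Over the 6 fits without 1 animal the averaged change stayed between -3.70 and -2.91 for Ermap and between -2.16 and -1.69 for Add2. The genes called in those fits ranged from 4 to 490.

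Whether the 2 genotypes responded differently was tested directly. The mean within-animal change of Ermap was -4.61 ± 0.15 in WT and -1.901 ± 1.64 in CM (SD, n = 3 each), a difference of 2.71, and for Add2 it was -2.68 ± 0.79 against -1.03 ± 0.87, a difference of 1.66. For both genes no CM animal fell as far as any WT animal. For Add2 the gap was narrow, with -1.85 in CM animal 2 and -1.97 in WT animal 2. The share of all genes that separate in this way was not counted. The two-sided exact permutation test over animals gave p = 0.1 for each, the smallest value that 3 against 3 allows. That value restates the separation and adds nothing to it. The test gave 0.4 to 0.7 for the other 5 of the 7 genes tested in this way. In the fit across all genes the blocked difference was 2.92 ± 0.81 for Ermap and 1.81 ± 0.56 for Add2, both at an adjusted p of 0.99995. No gene of the 14599 was called for this difference (0% of all genes) with or without the block, and DESeq2 called 0 of the 7. At an unadjusted p under 0.05 the fit without the block held 0 of the 7, against 0.726% of all genes, and the fit with it held 2, Ermap and Add2, against 2.86%.

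Between the genotypes, Aqp1 differed most in fitted value without irradiation. Its 3 CM libraries (2.30, 5.08 and 2.83 CPM) all lay under its 3 WT libraries (47.2, 6.63 and 12.7 CPM), as did 7.84% of all genes. The fitted difference was -2.70 ± 0.78 and was not called by edgeR (adjusted p = 0.126), nor by limma-voom, but was called by DESeq2 (-2.71, adjusted p = 0.00323), as were 6.32% of the genes DESeq2 gave an adjusted p. Without the NIR library of WT animal 1 it was -1.50. After irradiation CM stood at 2.53, 1.98 and 7.08 CPM and WT at 18.3, 6.20 and 15.7 CPM, with overlap at 1 library, and the difference was -1.79 ± 0.75 (adjusted p = 0.370).

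No other member passed in either genotype comparison, by edgeR or DESeq2. Without irradiation 0 of the 7 were called by edgeR against 1.62% of all genes, and 1, Aqp1, had an unadjusted p under 0.05, as did 15.1% of all genes. Add2 (-1.48 ± 0.88, adjusted p = 0.470) and Slc4a1 (-1.06 ± 1.80, adjusted p = 0.812) also had a lower fitted value in CM. After irradiation 0 were called against 0.664%, and 3 had an unadjusted p under 0.05, Aqp1 lower and Epor and Ermap higher in CM, against 11.8% of all genes. Ermap was 3.96 ± 1.47 higher in CM after irradiation (adjusted p = 0.290) and 0.40 ± 1.28 without it (adjusted p = 0.907). Epor was 1.33 ± 0.59 higher after irradiation (adjusted p = 0.417) and Klf1 1.72 ± 0.90 (adjusted p = 0.515). These comparisons and those of irradiation share their libraries and are not independent of each other.

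Beyond these 9 genes, most genes of the red cell membrane had a lower fitted value after irradiation, and few passed the test. Of 20 genes of the red cell membrane and skeleton, 19 had a lower fitted value in WT (median -1.10) and 19 in CM (median -0.63), against a median of -0.01 and -0.00 over all genes, and 52.6% and 50.4% of all genes fitted lower. None was called without the block. With the block 3 were called lower in WT, among them Ank1 (ankyrin, -2.55 ± 0.41, adjusted p = 0.0476) and Kel (the Kell blood group protein, -3.01 ± 0.48, adjusted p = 0.0443), against 0.178% of all genes, and 0 in CM. Averaged over both genotypes the block also called Add3, a second adducin (-0.28 ± 0.04, adjusted p = 0.0324), Rhd of the Rh complex (-3.20 ± 0.50, adjusted p = 0.0365) and the glucose transporter Slc2a1 (-0.44 ± 0.08, adjusted p = 0.0434), against 0.651% of all genes. For the genes named, leaving out any 1 WT animal ended the blocked calls in WT and averaged, and so did leaving out CM animal 2. These genes were singled out after their values were seen.

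Among 14 other erythroid genes 12 fitted lower in WT (median -0.39) and 11 in CM (median -0.26). The block called 1 of them in WT, Car1, carbonic anhydrase 1 (-3.31 ± 0.40, adjusted p = 0.0201), against 0.178% of all genes called lower. Leaving out any 1 WT animal ended that call (adjusted p 0.0898 to 0.198). Car1 stood at 55.7, 6.68 and 16.3 CPM in the WT NIR libraries and at 5.46, 0.584 and 1.89 CPM in the IR libraries.

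**Figure D4:**
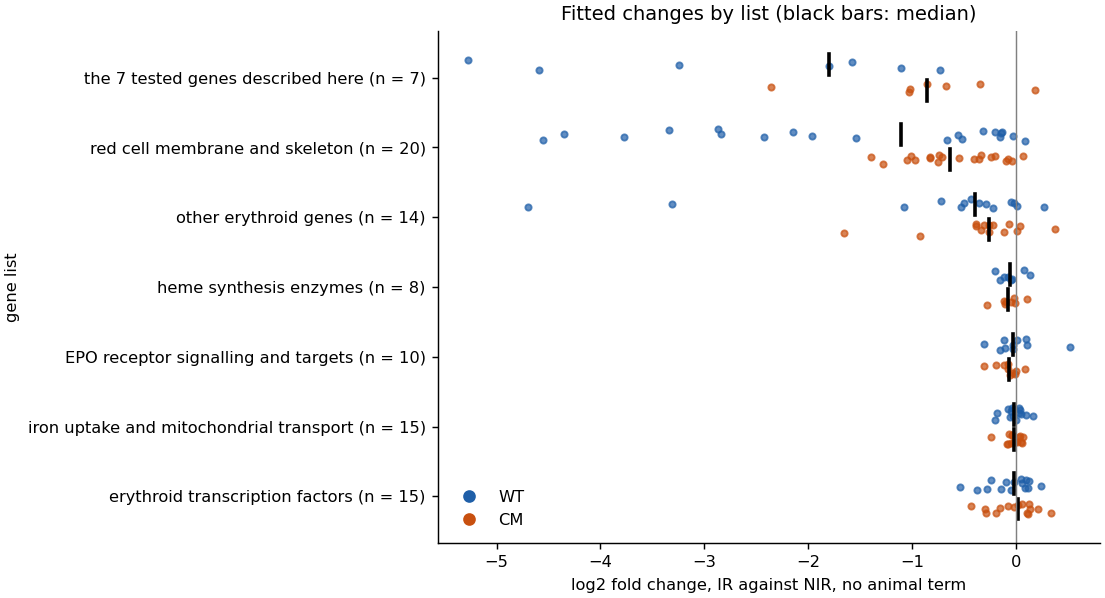
Fitted log2 fold change of IR against NIR, without an animal term, for each tested gene of 7 lists (WT blue, CM orange; black bars are medians). The membrane list reaches below -4 in WT with a median of -1.10, while the medians of the heme, EPO, iron and transcription factor lists lie within 0.1 of 0.

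For the lists of regulators, receptor signalling, heme and iron the medians lay near 0. None of 15 erythroid transcription factors, 10 genes of erythropoietin receptor signalling, 8 heme synthesis enzymes or 15 genes of iron uptake and mitochondrial transport was called after irradiation in either genotype, with or without the block. Their medians in WT were -0.01, -0.03, -0.06 and -0.02. In the same order 8, 6, 6 and 8 genes had a lower fitted value in WT, and 7, 8, 7 and 9 in CM. The difference between these lists and the membrane list was not tested. Cish, a target of STAT5 below the erythropoietin receptor, had a blocked value of 0.53 ± 0.11 in WT (adjusted p = 0.104), opposite in sign to Epor. Cpox, an enzyme of heme synthesis, had a blocked averaged value of -0.23 ± 0.06 (adjusted p = 0.132).

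In CM against WT without irradiation edgeR called 3 of the 48 genes of these 4 lists, all higher, against 1.62% of all genes. Sox6, a repressor of embryonic globin, was higher by 1.11 ± 0.23 (adjusted p = 0.0434), Socs2, a STAT5 target, by 0.71 ± 0.14 (adjusted p = 0.0352) and Abcb6, a porphyrin transporter, by 1.02 ± 0.20 (adjusted p = 0.0343). Abcb6 stood at 39.1, 31.0 and 37.1 CPM in CM and at 22.6, 14.8 and 15.3 CPM in WT. No heme enzyme was called there, and the ubiquitous isoenzyme Alas1 stood at 0.70 ± 0.25 (adjusted p = 0.210). These 3 calls ended without WT NIR library 2 or 3 or CM NIR library 1 or 3 (adjusted p 0.113 to 0.190), those of Sox6 and Socs2 also without WT NIR library 1 (0.0731 and 0.0604), and all 3 without any 1 of the WT IR libraries (0.0523 to 0.0820) and in limma-voom with the animal as a block (0.0899 to 0.242). Sox6 was also not called by limma-voom (0.0539), without the low-count filter (0.0552), on RPKM (0.0527 and 0.0559) or with the library series as a term (0.0657), nor Socs2 with that term (0.0538). After irradiation no gene of these 4 lists was called between the genotypes.

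Markers of other blood cells moved with part of this pattern. Summed over the 9 genes, the level was highest at 131.7 CPM in the NIR library of WT animal 1 and lowest at 7.78 CPM in the IR library of CM animal 2. All 10 macrophage markers were detected in every library, and their sum ranged from 684 to 2840 CPM in WT NIR, 1154 to 2080 in WT IR, 535 to 2817 in CM NIR and 744 to 3152 in CM IR. The 11 mast cell and basophil markers summed to 232 to 806, 285 to 545, 277 to 2001 and 383 to 1839 CPM in the same order. The 12 megakaryocyte markers summed to 1233 to 2003, 1398 to 1992, 786 to 3194 and 1146 to 3844 CPM.

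The macrophage and mast cell sums were highest in the library of animal 1 in both WT groups, and within CM in animals 1 and 3. With irradiation they fell in WT animal 1 and CM animal 3, but were higher in WT animals 2 and 3, in which Ermap and Add2 fell. The macrophage sum went from 684 to 1154 CPM in WT animal 2 and from 780.1 to 1300.04 CPM in WT animal 3, while the sum of the 9 genes went from 14.9 to 8.77 and from 31.0 to 18.8 CPM. By gene, 6 of the 10 macrophage and 6 of the 11 mast cell markers had a lower fitted value in WT. The medians there were -0.13 and -0.19 without the block, and 0.18 and 0.08 with it. In CM 2 and 4 of these markers had a lower fitted value. The 12 lymphoid markers, of which 9 to 12 had a count in each library, summed to 34.9, 35.9 and 39.9 CPM in the NIR libraries of WT animals 1, 2 and 3 and to 24.8, 20.2 and 18.7 CPM in their IR libraries, lower in each WT animal. In CM they went from 33.0, 41.9 and 44.6 to 34.4, 20.6 and 50.1 CPM, lower in animal 2 alone. Of the 9 tested lymphoid markers 7 had a lower fitted value in WT (median -1.01) and 3 in CM (median 0.58), and 0 were called. The 12 neutrophil markers, detected in every library, summed to 3764, 3059 and 3116 CPM in WT NIR and to 4879, 4436 and 3999.5 CPM in WT IR, higher in each WT animal. They ranged from 2555 to 3663 CPM in CM NIR and 3086 to 3544 CPM in CM IR. Yet 7 of these 12 markers had a lower fitted value in WT (median -0.17) and 3 in CM (median 0.41). The higher sum in WT was thus not shared by most genes of the list. Mpo, a granule enzyme of myeloid cells, was the only neutrophil marker called with the block in WT, higher by 0.55 ± 0.08 (adjusted p = 0.0383). That fit called 163 of 14599 genes in either direction. Leaving out any 1 WT animal ended the call of Mpo (adjusted p 0.147 to 0.292). The 12 LSK markers summed to 919 CPM in the NIR library of WT animal 1, the lowest value of the 12 libraries, and to 1845 CPM in that of CM animal 2, the highest. The part of these other cells in the results was not tested.

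**Figure D5:**
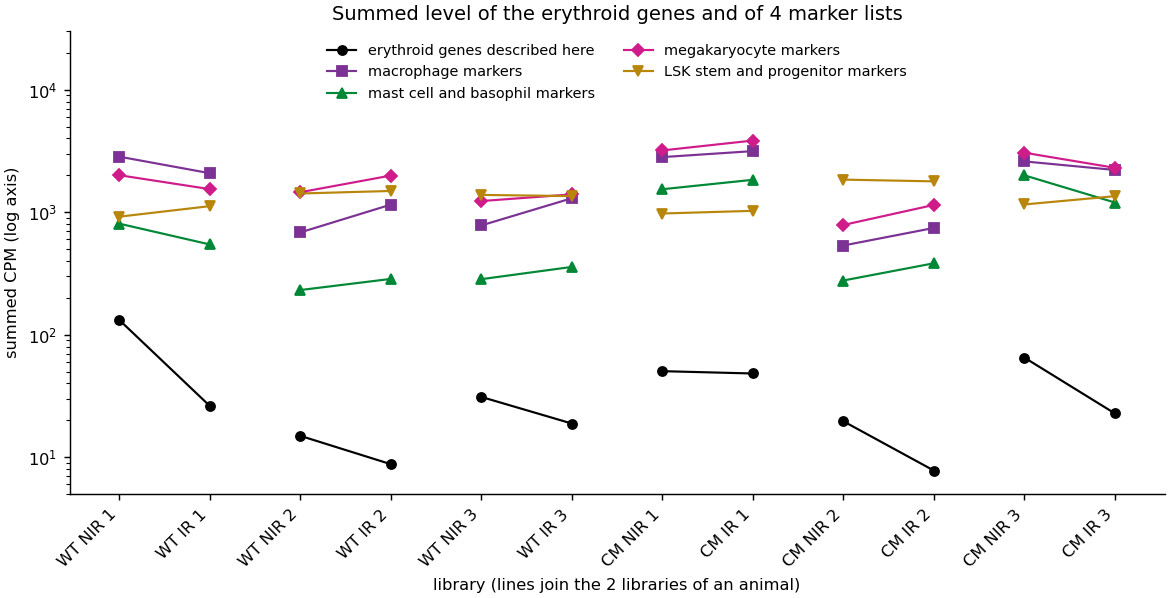
Summed CPM of the 9 erythroid genes and of 4 marker lists in each library on a log axis, with lines joining the NIR and IR library of an animal. The erythroid sum goes down in all 6 animals, in CM animal 1 only from 50.4 to 48.2 CPM, while the macrophage sum goes up in 4 of them. In CM animal 1 Ermap goes from 30.4 to 28.0 CPM and Add2 and Slc4a1 are slightly lower, but Klf1, Epor, Alas2 and Aqp1 are higher.

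Among the 5 genes whose log2 CPM followed Klf1 most closely over the 12 libraries, out of 11444 genes with a mean of at least 1 CPM, were Sphk1 (r = 0.97), Slc46a3 (0.97), Entpd3 (0.97) and Hpn (0.96). For Slc4a1 the 5 closest were Pmvk (0.92), Iqgap3 (0.91), Pygb (0.91), Ache (0.90) and Lars2 (0.90). These values describe 12 libraries from 6 animals and carry no test.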

How the data were processed

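RNA sequencing of 12 libraries from 6 animals was analysed from deposited gene tables. The deposited counts are whole numbers per gene and were used for every test; the deposited RPKM values were used to compare levels between genes. The submitters' processing notes list build mm10, HTSeq 0.6.1p1, TopHat2 and bcl2fastq 2.18.0.12. Settings, strand handling in counting and annotation release: not given in the sources used here. Overlapping genes and near-identical copies are uncertain for that reason. Per the labels' protocols the libraries were stranded and depleted of ribosomal RNA.

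Genes were kept by filterByExpr at a minimum count of 10 and a total of 15 (14599 of 25078), and counts were scaled by TMM and fitted with edgeR 4.0.16 (quasi-likelihood, R 4.3.3), with 1 mean per group over all 12 libraries and Benjamini-Hochberg adjustment over all genes tested at 0.05. The common biological coefficient of variation was 0.290. Errors of fold changes are standard errors. The labels give the same animal number to the NIR and IR library of an animal, so the samples are paired: deviations of an animal's 2 libraries from their group means correlated at 0.41 to 0.67 in WT and 0.13 to 0.84 in CM. A fit with the animal as a block is therefore given beside the fit without it. Alternatives were DESeq2 1.42.0, limma 3.58.1 (voom, and trend on RPKM), other size factors, no filter, a term for library number series, and leaving out each library or animal; leaving out an animal under the block was added after seeing the data. By library number, WT animal 1 and CM animals 1 and 2 fell in series A and the other animals in series B. Within WT, series A thus cannot be told apart from animal 1. The fitting code was tested on simulated data.

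The genes and lists were chosen with earlier results of these data known. Besides the 9 genes, the rule named from each list the 2 genes with the smallest p in the averaged irradiation contrast and the 2 in CM against WT without irradiation, and the 5 genes most correlated with Klf1 and with Slc4a1; of these, the text gives values for those that bear on the 9 genes. Symbols match RefSeq promoters of GRCm38.p6 for 8 of the 9 genes. A few genes that the rule named are not reported here. A count of 0 allows up to 3 counts.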

Additional observations from a re-analysis of the deposited data

How the results depend on the processing

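With 3 animals a group, several values rest on single libraries. Of 1260 comparisons of a result on these genes with an alternative, 1171 kept their direction and side of the threshold. Another 70 changed direction and 19 held a call only in the alternative. The main fit called none of the 7 genes in any comparison, so a kept side mostly means a gene that stayed uncalled. Cause was not tested for any change below. DESeq2 called 140 genes in WT after irradiation, 18 in CM, 169 averaged, 922 in CM against WT without irradiation and 652 after it, and 1 of the 7 erythroid genes in WT, averaged and CM against WT without irradiation. Limma-voom called 31 genes in WT and 156 in CM against WT after irradiation. With the replicate block of animals 163 genes were called in WT, 0 in CM and 302 averaged, with 2 of the 7 genes in WT and 2 averaged; with limma's duplicate correlation as the block 5 genes were called in CM against WT without irradiation and 13 after it. It changed no other call of these genes. RPKM gave 40 genes (pseudocount 0.1) and 52 (pseudocount 1) in WT, and with pseudocount 1 162 in CM against WT after irradiation and 1 for the difference of the responses. With the library series as a term 14 genes were called in CM against WT after irradiation. Slc4a1 in CM against WT without irradiation turned from -1.06 to 3.83 (voom), 3.87 (voom with the block), 0.70 (series) and 0.42 (RPKM, pseudocount 0.1). Alas2 in CM against WT after irradiation turned from 0.94 to -0.99 (voom) and -1.001 (voom with the block). For the difference of the responses Alas2 turned from 0.56 to -2.43 (voom), -0.94 (block), -0.37 (series), -0.59 and -0.040 (RPKM, pseudocounts 0.1 and 1), and Slc4a1 from 2.91 to -1.57 (voom) and -0.10 (RPKM, pseudocount 0.1). With single libraries or animals left out, blocked fits included, the genes called ranged from 0 to 516 in WT, 0 to 3 in CM, 1 to 490 averaged, 2 to 2497 in CM against WT without irradiation and 1 to 1000 after it, and those among the 7 from 0 to 2 in WT and 0 to 3 averaged. Fold changes of WT after irradiation then ranged from -1.48 to 0.024 for Epor, -2.09 to 0.83 for Alas2, -1.16 to 0.47 for Aqp1 and -8.62 to 3.10 for Slc4a1; in CM from -0.66 to 0.019 for Epor and -0.70 to 0.90 for Aqp1; averaged from -0.71 to 0.33 for Aqp1 and -5.49 to 0.37 for Slc4a1. In CM against WT without irradiation they ranged from -0.14 to 2.79 for Alas2, -1.98 to 0.16 for Add2, -0.11 to 1.70 for Ermap and -1.65 to 7.31 for Slc4a1, and after it from -1.24 to 1.53 for Alas2 and -0.59 to 5.20 for Slc4a1. For the difference of the responses they ranged from -0.24 to 1.78 for Klf1, -0.37 to 1.14 for Epor, -2.61 to 1.25 for Alas2, -0.29 to 1.63 for Aqp1 and -5.47 to 6.25 for Slc4a1. DESeq2 gave no adjusted p for Slc4a1. At under 0.5 CPM, Slc4a1 and Alas2 rest on few counts in several libraries.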
